A study of Mus musculus with 32 samples.

Results

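Thrsp and 9 genes of de novo lipogenesis, the pathway that builds fatty acids from acetyl-CoA, were followed across liver RNA of 32 mice. The 10 genes were a fixed list of symbols, chosen with earlier results of these data known. They were Thrsp, Mlxipl, Srebf1, Acly, Me1, Acaca, Acacb, Fasn, Elovl6 and Scd1. All 10 matched 1 Ensembl identifier each among the 52636 genes of the count table, and all 10 were among the 15599 genes with enough reads to be tested. Polyadenylated RNA was sequenced from 1 liver per library, in 8 groups of 4 mice that cross genotype, hormone and injection. The genotypes were a thyroid hormone receptor beta knockout (gene Thrb) and wild type. The hormone was T3 (triiodothyronine, the active thyroid hormone) at 1 µg/ml in the drinking water for the last week, or PBS (saline). The injection was carbon tetrachloride (CCl4, a hepatocyte toxin used to cause liver fibrosis) at 0.4 µl/g for 4 weeks, 9 injections in all, or oil. All 8 groups, controls included, ate a PTU/LID diet, a low-iodine diet with propylthiouracil that blocks thyroid hormone synthesis. Livers were collected 24 hours after the final injection. Strain, age and the construction of the knockout allele are not given in the labels.

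De novo lipogenesis starts with cytosolic citrate. ATP citrate lyase (Acly) cleaves it to acetyl-CoA, acetyl-CoA carboxylases (Acaca in the cytosol, Acacb at the mitochondrial membrane) make malonyl-CoA, and fatty acid synthase (Fasn) builds palmitate from it with NADPH, part of which comes from malic enzyme (Me1). Elovl6 lengthens palmitate and Scd1 inserts a double bond into the product. Srebf1 encodes the insulin-responsive transcription factor of this pathway and Mlxipl encodes ChREBP, the carbohydrate-responsive one. Thrsp (thyroid hormone responsive) encodes a small nuclear protein long used in rodent liver as a readout of T3 and of carbohydrate feeding, and Me1 is another classical T3 target.

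Library totals lay between 16985162 and 26118055 counts. Levels are CPM, a gene's count scaled to the size of its library, with the size adjusted by the library's TMM factor. Reads on Thrb were still present in knockout livers, at 15.9 to 42.6 CPM, against 10.7 to 66.4 CPM in wild-type livers. Within a treatment, knockout livers lay below wild-type livers without overlap on T3 and CCl4 (15.9 to 24.4 against 32.8 to 44.4 CPM). The same held on T3 and oil (22.7 to 33.7 against 43.2 to 60.6 CPM). It held too on PBS and oil (30.7 to 42.6 against 50.2 to 66.4 CPM). On PBS and CCl4 the genotypes overlapped (15.9 to 23.1 against 10.7 to 33.1 CPM). There the level of the whole gene does not check the genotype. Dio1, a deiodinase gene that T3 induces, did separate the labels. It was higher on T3 than on PBS without overlap in both genotypes, so knockout livers still responded to T3 at this gene. It was at 77.3 to 135 CPM in knockout T3 livers and 3.95 to 20.0 CPM in knockout PBS livers, and at 844 to 1185 CPM in wild-type T3 livers and 0.295 to 1.00 CPM in wild-type PBS livers. The summed level of 6 hepatocyte markers was 47862 to 68612 CPM in wild-type PBS CCl4 livers, below every other group's range except knockout PBS CCl4 (54657 to 113993 CPM). In bulk tissue, fewer hepatocytes and less RNA per hepatocyte cannot be told apart. The labels name a stranded and an unstranded library kit without assigning them, so a kit effect cannot be told apart from the groups.

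Thrsp lies on chromosome 7 (97412938 to 97417730, minus strand, GRCm38), Mlxipl on chromosome 5 (135089890 to 135138382, plus) and Me1 on chromosome 9 (86581371 to 86695953, minus). Chromosome 11 carries 4 of the 10, namely Srebf1 (60199089 to 60222581, minus), Acaca (84129672 to 84401651, plus), Acly (100476353 to 100528000, minus) and Fasn (120805846 to 120824547, minus). Elovl6 lies on chromosome 3 (129532355 to 129638495, plus), Acacb on chromosome 5 (114146535 to 114250761, plus) and Scd1 on chromosome 19 (44394455 to 44407879, minus). Opposite-strand genes overlap Acaca (Gm11437, up to 263 counts in a library), Elovl6 (Gm35986, 254), Mlxipl (Gm43500, 90), Srebf1 (Rai1, 951), Me1 (A330041J22Rik, 14) and Acacb (Gm13784, 0). The strand setting of the counting is not given in the sources used here, so their reads cannot be told apart from those genes. Scd1 can share reads with its close paralog Scd2. Per kilobase of exon, Scd1 was the most abundant member in wild-type T3 oil livers, at 1978 CPM per kb, and Thrsp the second, at 631 CPM per kb. Acaca was the least abundant there, at 9.94 CPM per kb.

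Promoter sequence is shown for 5 members that differed in their response to T3, to set their letters beside their values. Windows of 300 bases (250 before to 50 after a start) were taken from RefSeq on GRCm38.p6. Of the 10 members, 9 had at least 1 window, and Scd1 had none. Printed below are the bases upstream of each gene's outermost annotated start, 5′ to 3′ on the gene's strand, with capitals marking motif letters. The stretches are Thrsp chr7:97417731-97417800 minus, Fasn chr11:120824548-120824797 minus, Elovl6 chr3:129532136-129532354 plus, Mlxipl chr5:135089640-135089889 plus and Acly chr11:100528001-100528250 minus.
Thrsp: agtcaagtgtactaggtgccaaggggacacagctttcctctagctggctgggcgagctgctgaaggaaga
Fasn: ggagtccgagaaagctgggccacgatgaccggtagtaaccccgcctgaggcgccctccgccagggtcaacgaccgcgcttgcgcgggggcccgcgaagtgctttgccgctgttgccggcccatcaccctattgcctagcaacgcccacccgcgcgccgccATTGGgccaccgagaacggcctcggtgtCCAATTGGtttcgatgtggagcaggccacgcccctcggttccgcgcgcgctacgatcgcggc
Elovl6: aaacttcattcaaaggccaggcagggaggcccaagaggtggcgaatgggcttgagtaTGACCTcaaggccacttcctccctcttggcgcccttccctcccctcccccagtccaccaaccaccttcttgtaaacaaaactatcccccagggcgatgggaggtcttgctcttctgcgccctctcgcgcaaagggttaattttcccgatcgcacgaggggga
Mlxipl: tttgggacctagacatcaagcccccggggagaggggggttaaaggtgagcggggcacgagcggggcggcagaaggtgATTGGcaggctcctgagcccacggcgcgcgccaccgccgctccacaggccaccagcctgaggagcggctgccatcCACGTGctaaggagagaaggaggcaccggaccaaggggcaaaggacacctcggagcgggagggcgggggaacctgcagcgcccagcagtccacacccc
Acly: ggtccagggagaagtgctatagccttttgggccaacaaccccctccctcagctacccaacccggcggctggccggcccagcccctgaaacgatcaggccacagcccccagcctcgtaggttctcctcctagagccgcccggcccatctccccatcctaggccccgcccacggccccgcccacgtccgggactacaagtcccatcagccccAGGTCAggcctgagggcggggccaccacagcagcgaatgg
The search covered both strands for AGGTCA (the half-site bound by nuclear receptors), the sterol regulatory element (a fixed consensus of 10 letters), CACGTG (an E-box) and CCAAT (bound by NF-Y). AGGTCA occurred in the windows of 3 of 9 members, Elovl6, Acacb and Acly, and in 16.3% of 32851 promoter windows. CCAAT occurred in 7 of 9 members and in 37.4% of windows. In Fasn, CCAATTGG holds an overlapping match on each strand. CACGTG occurred in Mlxipl alone, and in 7.15% of windows. The sterol regulatory element consensus occurred in none of the 9, and in 0.0913% of windows. A member counted where any of its windows matched, and Srebf1 had 3 windows and Me1 and Mlxipl 2 each. The percentages are per window, so they are not in the same unit as the member counts. The Thrsp window held CCAAT on both strands, inside the longer annotated first exon and so outside the printed stretch. A letter match describes the sequence and no more.

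The first comparison asked what a week of T3 did to the 10 genes in each genotype. In knockout livers T3 moved none of them past an adjusted p of 0.05, on CCl4 or on oil. In wild-type livers it raised 8 of 10 on CCl4, and on oil it raised 7 and lowered Srebf1. Thrsp had the largest rise in both, and Me1, Fasn, Elovl6, Acacb, Acaca and Mlxipl rose in both. Of all genes tested, 2.54% passed the test in knockout livers on CCl4 and 18.7% on oil. In wild-type livers 20% of all genes were called higher on CCl4, and on oil 19% were called higher and 16.2% lower. The 8 members called on CCl4 also had no overlap between T3 and PBS livers, which held for 16.6% of all genes in that direction. The median log2 difference over the 10 genes in knockout livers was −0.35 on CCl4 and −0.16 on oil, against −0.027 and 0.010 over all genes. In wild-type livers it was 2.45 on CCl4 and 1.23 on oil, against −0.065 and −0.021 over all genes. Marker genes of liver cell types also moved with T3 in wild-type CCl4 livers, where 4 of 6 hepatocyte and 4 of 6 macrophage markers were called higher and 4 of 5 cholangiocyte markers lower. Summed levels on T3 and on PBS there were 81797 to 114649 and 47862 to 68612 CPM for hepatocyte, 395 to 602 and 151 to 416 CPM for macrophage, and 56.7 to 156 and 124 to 341 CPM for cholangiocyte markers. On oil in wild-type livers 1 hepatocyte marker was called higher and 3 lower, and 6 of 6 macrophage markers higher. In knockout oil livers T3 also raised 6 of 6 macrophage markers, with a median log2 difference of 1.90, against 2.16 in wild-type oil livers. The part of these cells in the T3 values was not tested.

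**Figure D1:**
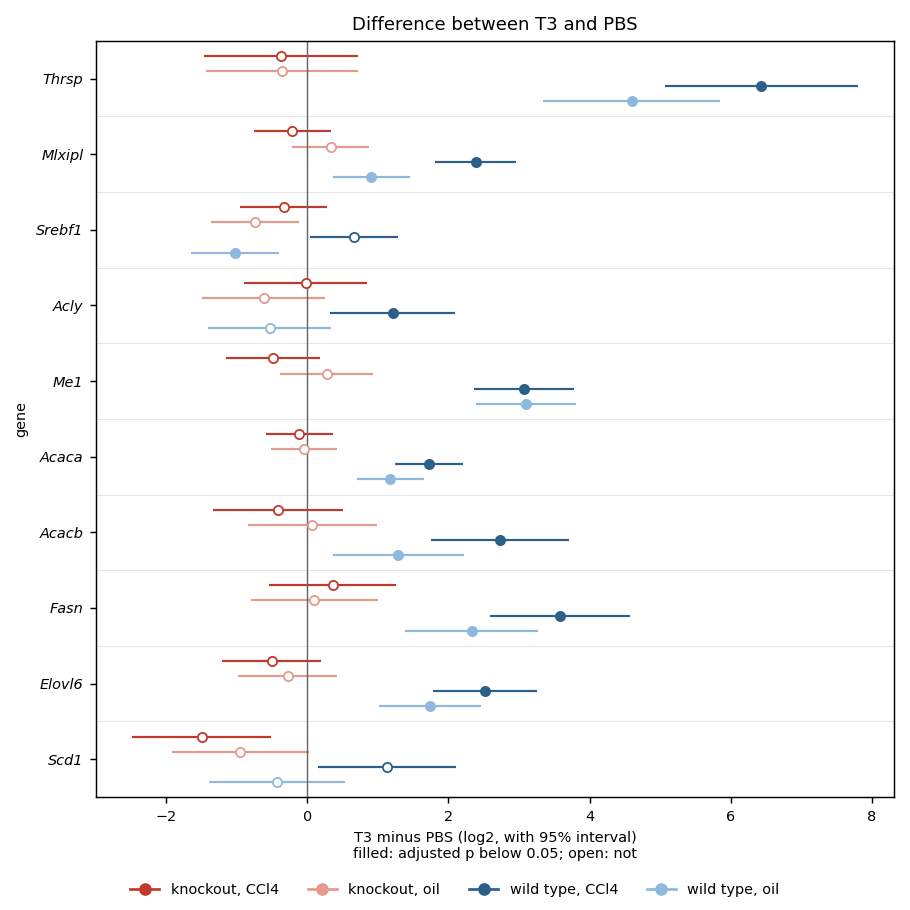
Difference between T3 and PBS livers (log2, x axis) for each of the 10 genes (rows), in knockout and wild-type livers on CCl4 or oil. Points are fitted differences with 95% intervals, filled where the adjusted p is below 0.05. The wild-type points for Thrsp stand at 6.43 on CCl4 and 4.60 on oil, and the knockout points at −0.37 and −0.36.

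Thrsp, in knockout CCl4 livers, had 18.5, 28.2, 18.4 and 43.5 CPM on T3, against 18.9, 24.1, 25.2 and 71.9 CPM on PBS. In knockout oil livers it had 138, 83.2, 218 and 121 CPM on T3, against 119, 58.2, 185 and 355 CPM on PBS. The knockout T3 and PBS groups overlapped on both injections. In wild-type CCl4 livers Thrsp had 1217, 689, 786 and 1747 CPM on T3, against 18.8, 6.60, 12.8 and 13.1 CPM on PBS. In wild-type oil livers it had 1284, 1922, 2084 and 231 CPM on T3, against 83.4, 36.4, 47.1 and 61.2 CPM on PBS. Every wild-type T3 liver stood above every wild-type PBS liver, and replicate 4 on T3 and oil was the lowest of its group, with 9.04-fold between the highest and the lowest. That liver had 857 CPM of Dio1, also the lowest of the 4, where the others had 1084 to 1185 CPM. A link between its Thrsp and Dio1 levels was not tested. The log2 rise in wild-type livers was 6.43 ± 0.67 on CCl4 (SE, adjusted p = 2.12e-08, 86.5-fold) and 4.60 ± 0.61 on oil (adjusted p = 8.67e-07, 24.2-fold). In knockout livers the log2 difference was −0.37 ± 0.53 on CCl4 (adjusted p = 0.804) and −0.36 ± 0.53 on oil (adjusted p = 0.700), with upper 95% limits of 0.72 and 0.72. Its sign there rested on 1 library each. Without replicate 4 of knockout PBS CCl4 it was 0.25, and without replicate 4 of knockout PBS oil it was 0.20.

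By group mean, the order of Thrsp was wild-type T3 oil (1380 ± 841 CPM, SD, n = 4), wild-type T3 CCl4 (1110 ± 483), knockout PBS oil (179 ± 128), knockout T3 oil (140 ± 56.8), wild-type PBS oil (57.0 ± 20.3), knockout PBS CCl4 (35 ± 24.7), knockout T3 CCl4 (27.1 ± 11.8) and wild-type PBS CCl4 (12.8 ± 5.0). Neighbours in that order overlapped, except that wild-type T3 CCl4 stood clear of knockout PBS oil. Replicate 4 of wild-type T3 oil (231 CPM) lay within the range of knockout PBS oil.

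**Figure D2:**
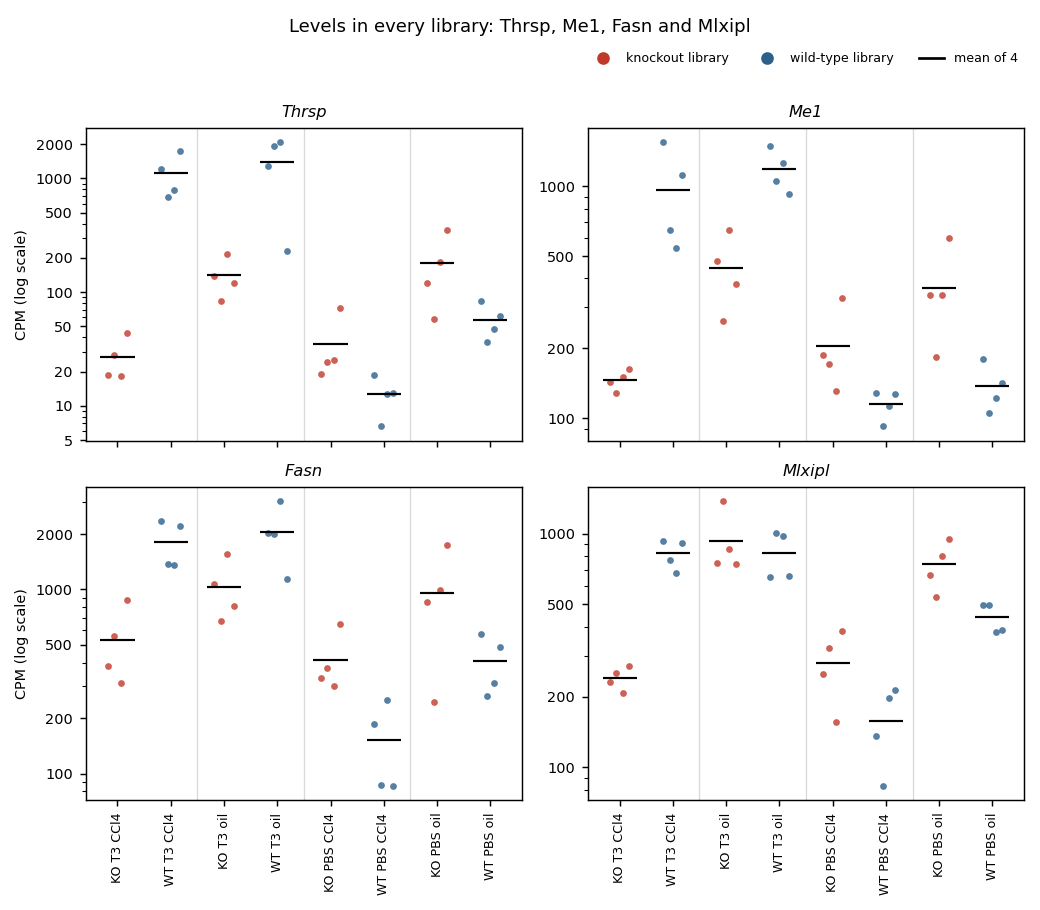
CPM (log axis) of Thrsp, Me1, Fasn and Mlxipl in each of the 32 libraries, by group, with red points for knockout and blue for wild type. Bars mark the mean of 4, which for Thrsp is 27.1 CPM in knockout T3 CCl4 livers and 1110 CPM in wild-type T3 CCl4 livers.

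Of the transcription factor genes, Mlxipl (ChREBP) in knockout CCl4 livers had 232, 253, 207 and 271 CPM on T3, against 249.7, 325, 155 and 384 CPM on PBS. In wild-type CCl4 livers it had 931, 773, 678 and 911 CPM on T3, against 136, 83.2, 198 and 213 CPM on PBS. In wild-type oil livers it had 655, 1007, 983 and 658 CPM on T3, against 496, 495, 380.3 and 388 CPM on PBS. The wild-type groups did not overlap, and the log2 rise was 2.38 ± 0.28 on CCl4 (adjusted p = 1.45e-07) and 0.91 ± 0.27 on oil (adjusted p = 0.00843). Srebf1 went the other way on oil. In wild-type oil livers it had 103, 140.1, 224 and 80.1 CPM on T3, against 420.0, 217, 179.5 and 298 CPM on PBS, a log2 difference of −1.03 ± 0.31 (adjusted p = 0.00965). These groups overlapped through replicate 3 on T3, and the call was lost without replicate 1 of wild-type PBS oil (adjusted p = 0.0660). In wild-type CCl4 livers Srebf1 averaged 166 CPM on T3 and 104 CPM on PBS, a log2 difference of 0.67 ± 0.30 that did not pass (adjusted p = 0.0784) but did without replicate 1 of wild-type PBS CCl4 (adjusted p = 0.0418). In knockout oil livers Srebf1 averaged 197 CPM on T3 and 328 CPM on PBS, a log2 difference of −0.73 ± 0.30 (adjusted p = 0.0919), which passed without replicate 2 of knockout PBS oil (adjusted p = 0.0131).

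For acetyl-CoA and NADPH supply, Acly in wild-type CCl4 livers had 577, 256, 276 and 381 CPM on T3, against 171, 112, 210.1 and 149 CPM on PBS. The groups did not overlap, and the log2 rise was 1.21 ± 0.43 (adjusted p = 0.0251). That call was lost without replicate 1 of wild-type T3 CCl4 (adjusted p = 0.104), without replicate 2 of wild-type PBS CCl4 (0.0833), or when libraries were scaled by their totals alone (0.0842). On oil, wild-type livers had Acly at a mean of 345 ± 129 CPM on T3 and 497 ± 267 CPM on PBS (SD, n = 4 each), and the log2 difference of −0.53 ± 0.43 did not pass (adjusted p = 0.356). Me1 rose by about the same amount on both injections. In wild-type CCl4 livers it had 1549, 649, 542 and 1122 CPM on T3, against 128, 92.2, 113 and 127 CPM on PBS. In wild-type oil livers it had 1495, 1050.2, 1254 and 924 CPM on T3, against 180.4, 106, 122 and 142 CPM on PBS. The log2 rise was 3.07 ± 0.35 on CCl4 (adjusted p = 9.13e-08) and 3.10 ± 0.35 on oil (adjusted p = 5.25e-08), with no overlap on either injection. In knockout livers Me1 averaged 146 CPM on T3 and 205 CPM on PBS with CCl4, and 442 CPM on T3 and 366 CPM on PBS with oil, and the groups overlapped.

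For the synthesis steps, Fasn in wild-type CCl4 livers had 2362, 1369, 1356 and 2203 CPM on T3, against 185, 86.1, 252 and 85.8 CPM on PBS. In wild-type oil livers it had 2034, 1992, 3007 and 1143 CPM on T3, against 571, 263, 311 and 484 CPM on PBS. The groups stood apart on both injections, with a log2 rise of 3.58 ± 0.49 on CCl4 (adjusted p = 1.62e-06, 12-fold) and 2.33 ± 0.46 on oil (adjusted p = 2.19e-04, 5.02-fold). In knockout livers Fasn averaged 532 CPM on T3 and 414 CPM on PBS with CCl4, and 1031 CPM on T3 and 960 CPM on PBS with oil. Those knockout groups overlapped. Of the carboxylases, Acacb averaged 201 ± 74.4 CPM on T3 and 30.1 ± 9.24 CPM on PBS in wild-type CCl4 livers, a log2 rise of 2.73 ± 0.48 (adjusted p = 4.96e-05). On oil Acacb averaged 208 ± 55.9 CPM on T3 and 85.2 ± 39.2 CPM on PBS in wild-type livers, and its log2 rise of 1.29 ± 0.45 (adjusted p = 0.0275) was lost without replicate 1, 2 or 3 of wild-type T3 oil or replicate 2 or 3 of wild-type PBS oil (adjusted p 0.0520 to 0.0989). Acaca rose by 1.72 ± 0.24 (log2) on CCl4 (adjusted p = 1.81e-06) and by 1.18 ± 0.23 on oil (adjusted p = 2.07e-04) in wild-type livers, with no overlap on either.

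For elongation and desaturation, Elovl6 had 354, 216, 225 and 253 CPM on T3, against 57.1, 26.8, 54.2 and 45.4 CPM on PBS, in wild-type CCl4 livers. Its log2 rise was 2.51 ± 0.36 on CCl4 (adjusted p = 3.54e-06) and 1.74 ± 0.35 on oil (adjusted p = 2.65e-04), and T3 and PBS livers did not overlap on either. Scd1 did not follow it. In wild-type CCl4 livers Scd1 had 12069, 5194, 4259 and 10115 CPM on T3, against 4537, 3459, 2385 and 4033 CPM on PBS, with replicate 3 on T3 below replicate 1 on PBS, so the groups overlapped. Its log2 difference of 1.13 ± 0.48 did not pass (adjusted p = 0.0566), and passed without replicate 2 or 3 of wild-type T3 CCl4 (0.0473 and 0.0374) and in DESeq2 (0.0322). On oil, wild-type livers averaged 9675 ± 3055 CPM of Scd1 on T3 and 13048 ± 4244 CPM on PBS, a log2 difference of −0.43 ± 0.47 (adjusted p = 0.512). In knockout CCl4 livers Scd1 had 2469.6, 4036, 2669.5 and 6393 CPM on T3, against 4110.4, 5262, 7534 and 26952 CPM on PBS. The groups overlapped, and the log2 difference of −1.49 ± 0.48 missed the threshold (adjusted p = 0.0941). It was the 1 member called there by DESeq2 (adjusted p = 0.0297) and with library totals alone (0.0481), and the 1 member with an unadjusted p below 0.05. Without replicate 4 of knockout PBS CCl4 the log2 difference was −0.535 (adjusted p = 0.609). On oil in knockout livers the 1 such member was Srebf1, and DESeq2 called 0 of 10.

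**Figure D3:**
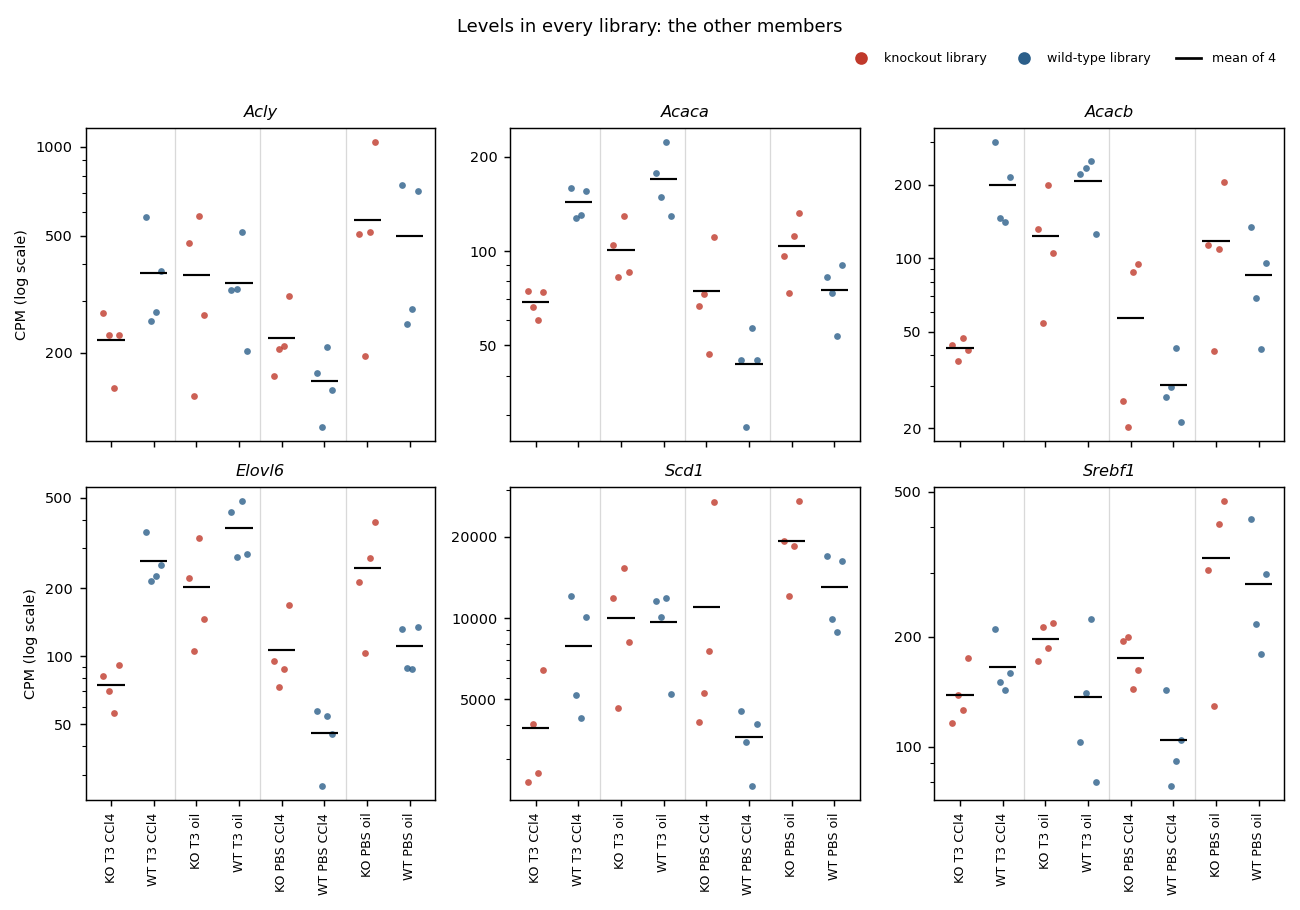
CPM (log axis) of Acly, Acaca, Acacb, Elovl6, Scd1 and Srebf1 in each of the 32 libraries, by group, with red points for knockout and blue for wild type and bars at the mean of 4. Scd1 reaches 26952 CPM in replicate 4 of knockout PBS CCl4 livers, where the other 3 lie between 4110.4 and 7534 CPM.

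Whether the T3 response itself differed between genotypes was tested as an interaction, knockout response minus wild-type response. It was lower in knockout livers for 8 of 10 genes on CCl4 and for 5 of 10 on oil, where 12.4% and 6.64% of all genes were called in that direction. On CCl4 the difference was −6.80 ± 0.82 (log2) for Thrsp (adjusted p = 1.36e-06), −3.56 ± 0.47 for Me1 (4.71e-06), −3.22 ± 0.64 for Fasn (6.24e-04), −3.15 ± 0.65 for Acacb (8.79e-04) and −3.02 ± 0.49 for Elovl6 (7.49e-05). The remaining calls there were Scd1 (−2.63 ± 0.68, 0.00575), Mlxipl (−2.59 ± 0.38, 1.91e-05) and Acaca (−1.83 ± 0.33, 2.10e-04). The 2 not called were Acly (adjusted p = 0.143) and Srebf1 (0.0921). The Scd1 and Thrsp values moved by over 1.5-fold without replicate 4 of knockout PBS CCl4, to −1.67 (adjusted p = 0.0401) and −6.19. On oil the 5 were Thrsp (−4.95 ± 0.79, adjusted p = 8.12e-05), Me1 (−2.83 ± 0.46, 1.17e-04), Fasn (−2.22 ± 0.63, 0.0192), Elovl6 (−2.01 ± 0.49, 0.00616) and Acaca (−1.22 ± 0.33, 0.0134). The Fasn call on oil was lost without replicate 3 of wild-type T3 oil (adjusted p = 0.0508) or replicate 4 of knockout PBS oil (0.0607).

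The second comparison asked what CCl4 did to the 10 genes. In knockout livers CCl4 lowered 6 of 10 on T3 and 7 of 10 on PBS. In wild-type livers 0 of 10 passed in edgeR on T3, with 0 at an unadjusted p below 0.05 and 0 called by DESeq2, and 9 of 10 were lower on PBS, all but Me1. Of all genes, 19.8% and 13.4% were called lower in knockout livers on T3 and on PBS. In wild-type livers 3.4% of all genes were called in either direction on T3 and 21.6% were called lower on PBS. Mlxipl, Thrsp and Elovl6 fell in all 3 settings with calls. The median log2 difference over the 10 genes was −1.40 on T3 and −1.12 on PBS in knockout livers, and −0.20 on T3 and −1.45 on PBS in wild-type livers. All-gene medians in these 4 comparisons lay between −0.007 and 0.039.

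**Figure D4:**
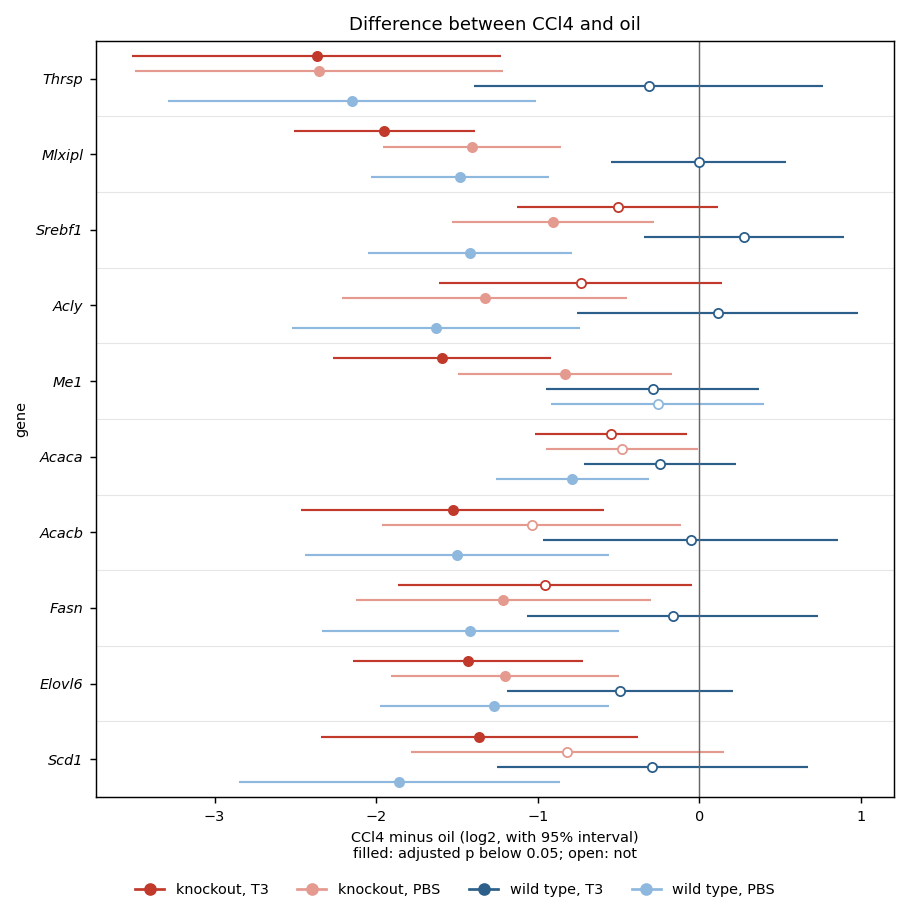
Difference between CCl4 and oil livers (log2, x axis) for each of the 10 genes (rows), in knockout and wild-type livers on T3 or PBS. Points are fitted differences with 95% intervals, filled where the adjusted p is below 0.05. The wild-type T3 points lie between −0.49 and 0.28, all open, and the wild-type PBS points between −2.15 and −0.26.

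Among regulators, the log2 difference of Mlxipl between CCl4 and oil in knockout livers was −1.95 ± 0.27 on T3 (adjusted p = 8.12e-06) and −1.41 ± 0.27 on PBS (4.13e-04), and in wild-type livers −1.48 ± 0.27 on PBS (9.83e-05). It averaged 241 ± 27.4 CPM on CCl4 and 931 ± 301 CPM on oil in knockout T3 livers, with no overlap. In wild-type T3 livers Mlxipl averaged 823 ± 120 CPM on CCl4 and 826 ± 195 CPM on oil. Srebf1 fell by 1.42 ± 0.31 in wild-type PBS livers (adjusted p = 5.59e-04) and fell by 0.91 ± 0.31 in knockout PBS livers (0.0260). Thrsp fell by 2.37 ± 0.56 in knockout T3 livers (adjusted p = 0.00154). It fell by 2.36 ± 0.56 in knockout PBS livers (0.00267), and it fell by 2.15 ± 0.56 in wild-type PBS livers (0.00256). Without replicate 4 of knockout PBS CCl4 the difference in knockout PBS livers was −2.99. In wild-type T3 livers the log2 difference of Thrsp had a 95% interval of −1.39 to 0.76.

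Among enzymes in wild-type PBS livers, the log2 difference between CCl4 and oil was −1.63 ± 0.44 for Acly (adjusted p = 0.00337), −1.86 ± 0.49 for Scd1 (0.00287) and −1.50 ± 0.46 for Acacb (0.00903). It was −1.42 ± 0.45 for Fasn (0.0113), −1.27 ± 0.35 for Elovl6 (0.00406) and −0.79 ± 0.23 for Acaca (0.00685). Elovl6 had 57.1, 26.8, 54.2 and 45.4 CPM on CCl4 there, against 132, 88.4, 87.7 and 134 CPM on oil, with no overlap. All 9 calls there held when any 1 library was left out, and the Acaca call was lost with library totals alone (adjusted p = 0.121). Me1 stayed at 115 ± 16.8 CPM on CCl4 and 138 ± 32.2 CPM on oil in wild-type PBS livers, a log2 difference of −0.26 ± 0.32 (adjusted p = 0.533) whose sign turned with library totals alone (0.15). In knockout T3 livers the falls were Me1 (−1.59 ± 0.33, adjusted p = 4.89e-04), Acacb (−1.53 ± 0.46, 0.00968), Elovl6 (−1.43 ± 0.35, 0.00202) and Scd1 (−1.36 ± 0.48, 0.0249). Of these, Acacb was lost without replicate 3 of knockout T3 oil (0.0513), and Scd1 without replicate 1 or 3 of knockout T3 CCl4 or replicate 1 or 3 of knockout T3 oil (0.0560 to 0.0936). Fasn was called there without replicate 4 of knockout T3 CCl4 (0.0377) and Acaca without replicate 2 of knockout T3 oil (0.0469).

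In several groups 1 library was the highest or lowest for most members. Of 10 genes, replicate 1 of wild-type T3 CCl4 was the highest for 9, and replicate 1 of wild-type PBS oil for 8. In knockout T3 oil, replicate 3 was the highest for 8 and replicate 2 the lowest for 8. In wild-type T3 oil, replicate 3 was the highest for 8 and replicate 4 the lowest for 8. The knockout PBS groups showed this too. Replicate 4 of knockout PBS oil was the highest of its group for 10 of 10 genes and replicate 2 the lowest for 10 of 10, and replicate 4 of knockout PBS CCl4 was the highest for 9. The log2 difference between CCl4 and oil there was −1.33 ± 0.43 for Acly (adjusted p = 0.0213), −1.21 ± 0.45 for Fasn (0.0396), −1.20 ± 0.35 for Elovl6 (0.0105) and −0.83 ± 0.32 for Me1 (0.0499). Without replicate 4 of knockout PBS oil, the calls for Me1 (adjusted p = 0.267), Fasn (0.216), Acly (0.141), Srebf1 (0.114) and Elovl6 (0.0653) were lost, which left 2 of the 7. Leaving out replicate 1 or 3 of knockout PBS CCl4 also ended the calls for Me1, Fasn and Acly (0.0555 to 0.168). Leaving out replicate 2 of knockout PBS CCl4, or replicate 1 or 3 of knockout PBS oil, ended those for Me1 and Fasn (0.0523 to 0.107). The Srebf1 call was lost without replicate 3 or 4 of knockout PBS CCl4 or replicate 3 of knockout PBS oil (0.0509 to 0.0810). Without replicate 4 of knockout PBS CCl4, Scd1 (log2 difference −1.79, adjusted p = 0.00402, against −0.82 ± 0.47 and 0.191 with it), Acaca (0.0176) and Acacb (0.0313) were called too, and Acacb also without replicate 2 of knockout PBS oil (0.0286). Replicate 3 of knockout PBS CCl4 carried 84.5 CPM summed over 7 adipocyte markers, with 58.0 CPM from Plin4, 5.09 from Adipoq and 15.4 from Cfd, where the other 3 livers of the group had 5.10 to 7.70 CPM. Replicate 2 of wild-type PBS CCl4 had 46.8 CPM over the same markers, of which Plin4 gave 46.3. Adipocytes also express most of the 10 genes, and the part of such cells in these values was not tested. The hepatocyte marker sum in PBS livers was lower on CCl4 than on oil in both genotypes. It was 54657 to 113993 against 124709 to 145882 CPM in knockout, and 47862 to 68612 against 115273 to 169710 CPM in wild type. In knockout T3 livers it was lower on CCl4 too (91443 to 118097 against 139781 to 173333 CPM). In wild-type T3 livers the ranges overlapped (81797 to 114649 on CCl4 against 75293 to 107819 CPM on oil). The part of this sum in the falls was not tested. Of 5 cholangiocyte markers, 3 were called higher with CCl4 in knockout PBS livers and 4 in wild-type PBS livers. In knockout PBS livers 4854 of all 15599 genes were called in either direction. In wild-type PBS livers 24.6% of all genes were called higher. The part of cholangiocytes was not tested either.

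Whether the T3 response differed between CCl4 and oil livers is, arithmetically, the same test as whether the CCl4 response differed between T3 and PBS. In knockout livers 0 of 10 genes passed (3.71% of all genes did), 0 had an unadjusted p below 0.05 and DESeq2 called 0. In wild-type livers the T3 response was more positive on CCl4 than on oil for 3 of 10, where 10.8% of all genes were called in that direction. These were Acly (1.74 ± 0.61, adjusted p = 0.0367), Srebf1 (1.69 ± 0.43, 0.00659) and Mlxipl (1.48 ± 0.38, 0.00651). Mlxipl rose with T3 on both injections, Acly rose on CCl4 and was not called on oil, and Srebf1 was not called on CCl4 and fell on oil. Thrsp differed by 1.84 ± 0.76, which did not pass (0.0747). The Acly call was lost without any 1 of 8 libraries (adjusted p 0.0530 to 0.0888), namely replicates 1 and 4 of wild-type T3 CCl4, 1, 2 and 4 of wild-type T3 oil, 2 of wild-type PBS CCl4 and 1 and 4 of wild-type PBS oil. The wild-type T3 rise on CCl4 and the wild-type CCl4 fall on PBS share their PBS CCl4 livers, so they are not independent results.

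The third comparison set knockout against wild type within each treatment. On T3 and CCl4 7 of 10 genes were lower in knockout livers, and on T3 and oil 3 of 10 were. On PBS and CCl4 none passed, and on PBS and oil Me1 was higher in knockout livers. Of all genes, 12.5% and 9.21% were called lower in knockout T3 livers on CCl4 and on oil, 2.25% were called in either direction on PBS and CCl4, and 0.404% were called higher on PBS and oil. These differences share libraries with the T3 and CCl4 comparisons above.

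**Figure D5:**
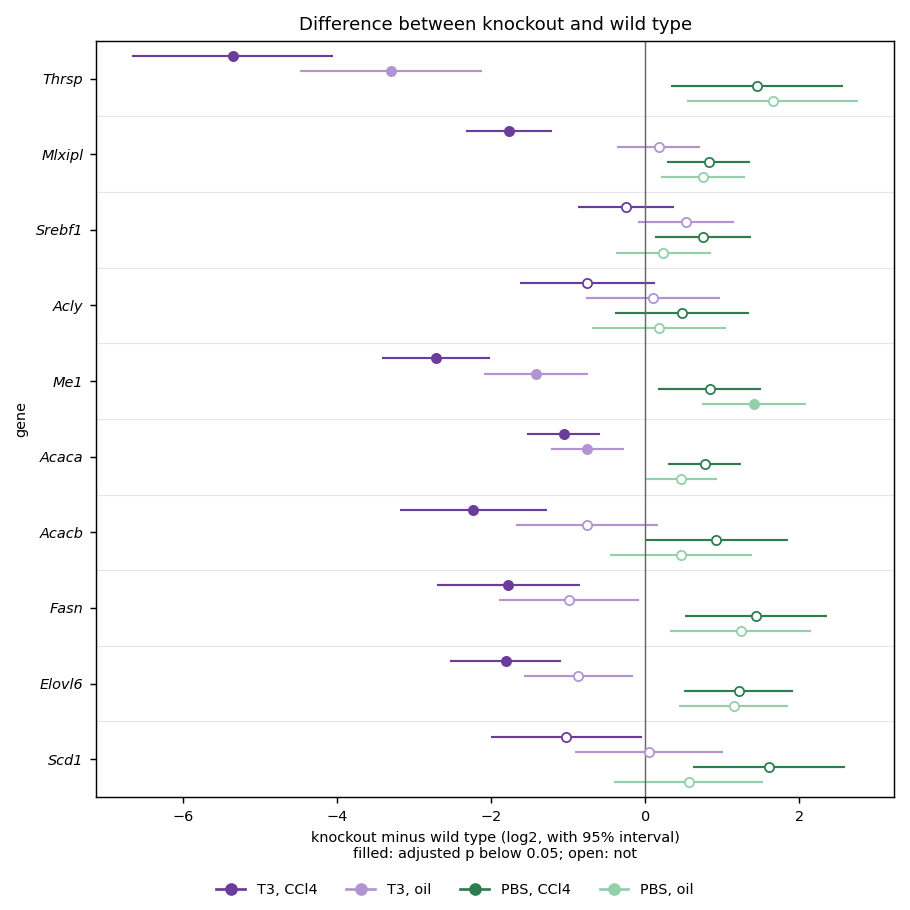
Difference between knockout and wild-type livers (log2, x axis) for each of the 10 genes (rows), in 4 treatments. Points are fitted differences with 95% intervals, filled where the adjusted p is below 0.05. Thrsp stands at −5.36 on T3 and CCl4 and at −3.30 on T3 and oil, and all points on PBS lie above 0.

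On T3 and CCl4 Thrsp was 41-fold lower in knockout livers (log2 −5.36 ± 0.64, adjusted p = 6.68e-07), Me1 6.59-fold lower (−2.72 ± 0.34, 1.67e-06) and Acacb 4.69-fold lower (−2.23 ± 0.47, 9.28e-04). Elovl6 (−1.81 ± 0.35, 4.49e-04), Fasn (−1.78 ± 0.45, 0.00497), Mlxipl (−1.77 ± 0.27, 2.73e-05) and Acaca (−1.06 ± 0.23, 0.00138) were lower too. None of these 7 overlapped between genotypes, where 16.1% of all genes did not overlap in that direction, and 7 were called when any 1 library was left out. On T3 and oil Thrsp was 9.86-fold lower (log2 −3.30 ± 0.58, adjusted p = 1.78e-04) and Me1 2.67-fold lower (−1.42 ± 0.33, 0.00318). Acaca (−0.75 ± 0.23, 0.0239) lost its call without replicate 2 or 4 of knockout T3 oil or replicate 1 or 3 of wild-type T3 oil (0.0574 to 0.11), and Elovl6 gained one without replicate 3 of knockout T3 oil (0.0255). Mlxipl on T3 and oil averaged 931 ± 301 CPM in knockout livers and 826 ± 195 CPM in wild-type livers, and the groups overlapped.

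Without T3 the fitted difference was positive for 10 of 10 genes on CCl4 and 10 of 10 on oil. That of Acly on oil turned negative under 3 alternatives, and Me1 on oil was the 1 difference that passed. The median over the 10 genes was 0.878 on CCl4 and 0.657 on oil, against −0.011 and −0.017 over all genes. The 10 genes share their libraries, so these signs are not independent. Replicate 4 of knockout PBS oil was the highest of its group for 10 of 10 and replicate 2 the lowest for 10. Replicate 4 of knockout PBS CCl4 was the highest for 9. Me1 on oil had 340.2, 184, 340.5 and 598 CPM in knockout livers, against 180.4, 106, 122 and 142 CPM in wild-type livers. All 4 knockout livers stood above all 4 wild-type livers, and the log2 rise was 1.41 ± 0.33 (adjusted p = 0.0371, 2.66-fold). It was lost without replicate 1, 3 or 4 of knockout PBS oil or replicate 2, 3 or 4 of wild-type PBS oil (adjusted p 0.0688 to 0.236). On oil Thrsp averaged 179 ± 128 CPM in knockout livers and 57.0 ± 20.3 CPM in wild-type livers (log2 1.65 ± 0.54, adjusted p = 0.248), Fasn 960 ± 616 and 407 ± 145 CPM (1.24 ± 0.45, 0.343) and Elovl6 245 ± 120 and 111 ± 26 CPM (1.15 ± 0.35, 0.183). Elovl6 passed without replicate 2 of knockout PBS oil (0.0438). On CCl4 8 of 10 had an unadjusted p below 0.05, as had 2791 of all 15599 genes. DESeq2 called 5 of 10, and 731 of all genes in either direction. The 5 included Elovl6 (log2 1.21 ± 0.35, adjusted p 0.0617 in edgeR and 0.0185 in DESeq2) and Scd1 (1.61 ± 0.48, 0.0740 and 0.0169). The others were Fasn (1.44 ± 0.45, 0.0830 and 0.0261), Acaca (0.77 ± 0.23, 0.0738 and 0.0332) and Mlxipl (0.82 ± 0.27, 0.0952 and 0.0427). In edgeR the same 5 passed without replicate 3 of knockout PBS CCl4, 4 passed without replicate 4 of wild-type PBS CCl4 (all but Fasn), Fasn and Acaca passed without its replicate 3, and Scd1 passed without replicate 1 of knockout PBS CCl4. The Scd1 difference was 0.646 (adjusted p = 0.527) without replicate 4 of that group. Thrsp on PBS and CCl4 had 18.9, 24.1, 25.2 and 71.9 CPM in knockout livers, against 18.8, 6.60, 12.8 and 13.1 CPM in wild-type livers, so the groups met without overlap, and its log2 difference of 1.45 ± 0.55 did not pass (adjusted p = 0.153). It was 0.826 (adjusted p = 0.538) without replicate 4 of knockout PBS CCl4.

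Genes around the pathway were counted from lists of related genes, also chosen with earlier results of these data known. Of all genes, T3 raised 10.6% and lowered 8.11% in knockout oil livers, lowered 0.769% in knockout CCl4 livers, raised 20% and lowered 21.7% in wild-type CCl4 livers, and raised 19% and lowered 16.2% in wild-type oil livers. CCl4 raised 24.6% and lowered 21.6% of all genes in wild-type PBS livers. Nothing is read from a list whose count is near these shares, as for the regulators in knockout oil livers, the supply genes raised by CCl4 and the mitochondrial genes on oil. The median log2 difference with T3 in wild-type CCl4 livers was 2.52 for the desaturases and elongases, 1.16 for glucose entry, 1.08 for glycerolipid assembly, 0.863 for the regulators, 0.833 for the supply genes and 0.46 for mitochondrial synthesis, against −0.065 over all genes. Of the regulators, Mid1ip1, the paralog and binding partner of Thrsp that promotes polymerisation of acetyl-CoA carboxylase, rose with T3 in wild-type livers by 1.78 ± 0.29 (log2) on CCl4 (adjusted p = 1.88e-05) and by 0.76 ± 0.28 on oil (0.0350). In knockout oil livers Mid1ip1 fell by 0.86 ± 0.28 (0.0317), where it had 53.9, 55.2, 55.4 and 51.7 CPM on T3, against 128, 34.7, 108 and 122 CPM on PBS, and replicate 2 on PBS was the lowest of all 8. Its T3 response, knockout minus wild type, was −1.95 on CCl4 and −1.63 on oil. Of 14 regulators tested, Mid1ip1 included, T3 raised 2 and lowered 1 in knockout livers on oil, and in wild-type livers it raised 11 on CCl4 and 7 on oil. In knockout CCl4 livers T3 changed 0 of them in edgeR and in DESeq2, and 1 had an unadjusted p below 0.05. Nr1h3, the liver X receptor that acts on Srebf1, rose by 0.89 ± 0.17 (adjusted p = 1.36e-04) and its partner Rxra by 1.04 ± 0.20 (1.82e-04) in wild-type CCl4 livers. Scap, the escort protein of the sterol regulatory element-binding proteins, rose with T3 by 0.73 ± 0.21 (0.0157) in knockout oil livers and by 1.11 ± 0.21 (1.50e-04) in wild-type oil livers. CCl4 lowered 7 of the 14 in wild-type PBS livers.

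Of the 7 other desaturase and elongase genes tested, T3 raised 2 in knockout livers on oil, and in wild-type livers 7 on CCl4 and 6 on oil. In knockout CCl4 livers edgeR and DESeq2 called 0, and 2 had an unadjusted p below 0.05. Elovl3, an elongase of very long chains, averaged 2.27 ± 0.982 CPM on T3 and 0.572 ± 0.498 CPM on PBS in knockout oil livers, and 50.9 ± 9.20 CPM on T3 and 0.178 ± 0.139 CPM on PBS in wild-type oil livers. Of the polyunsaturated-acid desaturases, Fads2 rose by 3.02 ± 0.40 (log2, adjusted p = 1.17e-06) and Fads1 by 2.52 ± 0.29 (9.34e-08) with T3 in wild-type CCl4 livers. With CCl4 in wild-type PBS livers, Fads2 fell by 1.55 ± 0.38 (0.00173) and Fads1 fell by 1.49 ± 0.28 (1.15e-04). Elovl3 was also the 1 gene of any of these lists called for CCl4 in wild-type T3 livers, where it averaged 7.03 ± 0.654 CPM on CCl4 and 50.9 ± 9.20 CPM on oil. It was at 0 counts in all 4 knockout T3 CCl4 livers.

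Of 10 genes that supply acetyl-CoA precursors or NADPH, T3 raised 2 in knockout livers on oil, and in wild-type livers 6 on CCl4 and 3 on oil. In knockout CCl4 livers edgeR and DESeq2 called 0, and 1 had an unadjusted p below 0.05. Acss2, which makes acetyl-CoA from acetate, rose by 3.87 ± 0.69 (log2, adjusted p = 6.19e-05) with T3 in wild-type CCl4 livers, where it averaged 523 CPM on T3 and 35.8 CPM on PBS. Taldo1, of the pentose phosphate pathway, rose with T3 in wild-type livers by 1.11 ± 0.12 on CCl4 (5.22e-08) and 1.13 ± 0.12 on oil (2.86e-08), and in knockout oil livers by 0.54 ± 0.12 (0.00216). CCl4 lowered 4 of these 10 and raised 2 in wild-type PBS livers, with a log2 difference of −3.28 ± 0.67 for Acss2 (3.02e-04) and of 1.05 ± 0.26 for Pgd, another NADPH source (0.00162). Of 7 glucose-entry genes, T3 lowered 2 on CCl4 in knockout livers, where edgeR called 0 and DESeq2 called 2 on oil, and in wild-type livers it raised 3 on CCl4 and lowered 2 on oil. Khk, ketohexokinase, rose by 1.39 ± 0.22 (1.29e-05) with T3 in wild-type CCl4 livers and fell by 0.94 ± 0.22 (0.0171) in knockout CCl4 livers.

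Of 11 genes of glycerolipid assembly and lipid droplets, T3 raised 1 in knockout livers on oil, and in wild-type livers it raised 6 and lowered 1 on CCl4 and raised 4 on oil. In knockout CCl4 livers edgeR and DESeq2 called 0, and 2 had an unadjusted p below 0.05. Pnpla3, a lipid-droplet acyltransferase and lipase under Srebf1 and ChREBP control, averaged 196 ± 98.7 CPM on T3 and 4.83 ± 5.27 CPM on PBS in wild-type CCl4 livers (log2 5.33 ± 0.94, adjusted p = 5.86e-05). The gene of the droplet coat protein Plin2 moved against the enzymes with CCl4. It averaged 1532 CPM on CCl4 and 442 CPM on oil in knockout PBS livers (log2 1.79 ± 0.26, 1.74e-05), and 1424 CPM on CCl4 and 384 CPM on oil in wild-type PBS livers (1.89 ± 0.26, 3.54e-06). With T3, Plin2 fell by 0.94 ± 0.25 (0.00394) in wild-type CCl4 livers and rose by 1.41 ± 0.26 (7.52e-05) in wild-type oil livers. Of 5 genes of mitochondrial fatty acid synthesis tested, a separate pathway, T3 raised 1 in knockout livers on oil, and in wild-type livers 3 on CCl4 and 1 on oil. Over 6 macrophage markers the summed level on oil was 424 to 631 CPM on T3 and 95.5 to 147 CPM on PBS in knockout livers, and 542 to 938 CPM on T3 and 99.99 to 176 CPM on PBS in wild-type livers.

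Likeness to Thrsp was ranked by Pearson's r over the 8 group means of log2 CPM, among 10590 genes, as a description. The nearest 5 genes were Mtch2 (0.997), Ulk2 (0.996), Rdh10 (0.995), Ndufa12 (0.993) and Slc46a3 (0.992). Pearson's r does not measure the size of a change. Group means ran from 12.8 to 1380 CPM for Thrsp, from 122 to 261 CPM for Mtch2 and from 5.34 to 62.6 CPM for Slc46a3. Among the members, r with Thrsp was 0.98 for Acacb, 0.97 for Acaca, 0.97 for Me1, 0.95 for Elovl6, 0.94 for Fasn, 0.87 for Mlxipl, 0.61 for Acly, 0.45 for Scd1 and 0.13 for Srebf1. The 3 members with the lowest r were the same 3 that T3 did not raise in wild-type oil livers. Those oil livers are among the 8 group means behind r, so this match is not a separate result. Nearest to Fasn among genes outside the 10 were Urad (0.993), Cyp27a1 (0.992), Slc23a1 (0.992), Pigk (0.991) and Chic1 (0.990). All these values share the same 32 libraries.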

How the data were processed

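The authors deposited raw counts per gene in 1 table for all 32 libraries, as whole numbers without normalization. STAR 2.7.9a, cutadapt, Trim Galore and FastQC 0.11.5 appear in the submitters' processing notes beside GRCm38, and which step each did is unstated there. How reads were counted, on which strand and over which annotation, is not given in the sources used here. Symbols (for 52489 of 52636 genes) and positions came from GENCODE on GRCm38, promoter windows from RefSeq (GRCm38.p6).

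Libraries of a group come from different mice, by their labels. The labels do not say that a replicate number marks a shared litter or day, and the main fit used no pairing. Of 112 same-number pairs, 13 had deviations correlated above 0.1, with a median of −0.009 and a range of −0.35 to 0.51. Different-number pairs were not compared, so these values cannot decide whether replicate numbers pair mice.

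The test on the counts was edgeR's (version 4.0.16, with limma 3.58.1 in R 4.3.3), with TMM factors, filterByExpr (minimum count 10, total 15; 15599 genes kept), 1 quasi-likelihood fit over all groups, 12 differences and 4 interactions. All p-values named "adjusted" are Benjamini-Hochberg values over the genes tested, from this test unless DESeq2 (1.42.0) is named. SE is the log2 difference over the square root of F. The script was tested on simulated counts first. CPM was computed with the TMM factors.

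Alternatives were DESeq2 size factors, library totals alone, no filter, a replicate block, only the groups compared, DESeq2, and leaving out each library. The 10 genes and the lists were chosen with earlier results of these data known. Besides the 10, the text names up to 3 called genes per list with the smallest adjusted p, control genes, Mid1ip1 and the nearest 5 genes by likeness. Not every gene the rule names is described, and 1 result is not reported here.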

Additional observations from a re-analysis of the deposited data

Results flagged for a closer look

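Of 80 sets of 4 replicates (10 genes in 8 groups), 2 had a replicate far from the other 3 by Dixon's test, which chance gives in about 1 in 20. Both were replicate 4 of knockout PBS CCl4, with 71.9 CPM of Thrsp against 18.9 to 25.2 CPM in the other 3, and 26951.6 CPM of Scd1 against 4110.4 to 7534 CPM. That library had 5.15 CPM over 7 adipocyte markers, so those markers were not raised in it.

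The T3 response differed between genotypes by the interaction test for 13 gene and injection pairs. On CCl4 the knockout minus wild-type log2 difference was −6.80 for Thrsp, −3.56 for Me1, −3.22 for Fasn, −3.15 for Acacb, −3.02 for Elovl6, −2.63 for Scd1, −2.59 for Mlxipl and −1.83 for Acaca. On oil it was −4.95 for Thrsp, −2.83 for Me1, −2.22 for Fasn, −2.01 for Elovl6 and −1.22 for Acaca. The T3 response differed between CCl4 and oil in wild-type livers by 1.74 for Acly, 1.69 for Srebf1 and 1.48 for Mlxipl.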

How the results depend on the processing

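Of the 65 calls for single members, 65 kept direction and threshold under DESeq2 and under DESeq2 size factors, 64 without the filter on low counts, 64 with the replicate block, 59 with library totals alone and 59 with only the groups compared. None of the 65 turned sign under these settings or in the leave-one-out refits. Over 648 leave-one-out refits of these calls, 53 passed the threshold no longer. The number of members called moved by 1.5 times or more in these cases. For T3 in knockout CCl4 livers it was 1 with library totals alone and 1 in DESeq2, against 0. For CCl4 in knockout T3 livers it was 9 with only the groups compared, against 6. For CCl4 in knockout PBS livers it was 4 with library totals alone and 2 with only the groups compared, against 7. For knockout against wild type on PBS and CCl4 it was 1 with the replicate block and 5 in DESeq2, against 0, and on PBS and oil it was 0 with only the groups compared, against 1. For the T3 response on CCl4 minus oil in wild type it was 5 with only the groups compared and 2 with library totals alone, against 3. Leaving out 1 library gave 0 to 1 for T3 in knockout oil livers, 2 to 9 for CCl4 in knockout PBS livers, 0 to 5 for the genotypes on PBS and CCl4 and 0 to 2 on PBS and oil, 4 to 7 for CCl4 in knockout T3 livers, 2 to 4 for the genotypes on T3 and oil and 2 to 3 for the T3 response on CCl4 minus oil in wild type. Of the 95 results of members that were not called, 24 turned sign under at least 1 alternative. Among those printed with a log2 value these were Thrsp with T3 in knockout livers (0.250 on CCl4 and 0.201 on oil, each without replicate 4 of the PBS group, with leave-one-out ranges of −0.693 to 0.250 and −0.664 to 0.201) and Me1 with CCl4 in wild-type PBS livers (0.148 with library totals alone). The replicate block ended 1 call, Fasn with CCl4 in knockout PBS livers (adjusted p = 0.0526), and the cause of these changes was not tested.

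Scaling by library totals alone moved the median log2 difference of all genes by −0.354 for T3 in wild-type CCl4 livers and 0.125 on oil, −0.103 for T3 in knockout CCl4 livers, 0.163 for CCl4 in knockout T3 livers, 0.312 in knockout PBS and 0.395 in wild-type PBS livers. For knockout against wild type it moved by 0.145 (T3, CCl4), −0.103 (T3, oil) and −0.106 (PBS, CCl4), and for the T3 response by 0.250 (knockout minus wild type, CCl4), −0.150 (CCl4 minus oil, knockout) and −0.482 (wild type). The share of called genes that were higher, with library totals alone and with TMM, was 44.2% and 69.7% for T3 in knockout CCl4 livers, 70.6% and 56.7% in knockout oil, 20.3% and 47.9% in wild-type CCl4 and 67.1% and 54% in wild-type oil livers. For CCl4 it was 64.3% and 49.9% in knockout T3, 86.3% and 57.1% in knockout PBS, 24.4% and 49% in wild-type T3 and 81.8% and 53.2% in wild-type PBS livers. For knockout against wild type it was 61.1% and 45.5% (T3, CCl4), 29.2% and 43.7% (T3, oil) and 30.1% and 53.8% (PBS, CCl4). For the T3 response it was 67.8% and 45.3% (knockout minus wild type, CCl4), 11.2% and 31% (CCl4 minus oil, knockout) and 10.3% and 45.2% (wild type).

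Over all genes, the count called moved by over 1.5 times in these cases. For T3 in knockout CCl4 livers it was 396, against 85 with only the groups compared and 681 in DESeq2. With only the groups compared it was 4194 for T3 in wild-type CCl4 livers, against 6506, 4590 for CCl4 in wild-type PBS livers, against 7202, and 2287 for the T3 response of knockout minus wild type on CCl4, against 3538. For knockout against wild type on PBS and CCl4 it was 351, against 205 without the filter, 3 with only the groups compared and 731 in DESeq2, and on PBS and oil 84, against 144 in DESeq2. For the T3 response on CCl4 minus oil in wild type it was 3722, against 6004 with library totals alone. Leaving out 1 library also did so. For T3 in knockout CCl4 livers the count was 176 and 165 without replicates 2 and 4 on T3, and 189 and 237 without replicates 1 and 4 on PBS. For knockout against wild type on PBS and CCl4 it was 120, 964 and 88 without knockout replicates 2, 3 and 4, and 147, 70 and 1748 without wild-type replicates 1, 2 and 4. For CCl4 in knockout PBS livers it was 2987 without replicate 3 on CCl4, against 4854, and for CCl4 in wild-type T3 livers 347 and 345 without replicates 1 and 2 on CCl4 and 328 without replicate 4 on oil, against 531. On PBS and oil, knockout against wild type gave 47 without wild-type replicate 2. The T3 response on CCl4 minus oil in knockout livers gave 329 to 384 without replicate 4 on T3 and CCl4, 3 on T3 and oil, 4 on PBS and CCl4, or 1 or 3 on PBS and oil, against 578.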
